A study of Mus musculus with 38 samples.

Results

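The MYC and MAX network is a set of transcription factors that share a helix-loop-helix leucine zipper domain and bind DNA as pairs with the MAX protein. The 10 members described here were chosen by known function: the MYC family (Myc, Mycn and Mycl1), Max, the antagonists Mxd1, Mxd3, Mxd4, Mxi1 and Mnt, and Mga. They are 10 of the 21705 genes in the table, and all 10 could be tested in every comparison. The members were chosen with earlier results of these data known.

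MYC proteins bind E-box DNA sequences and activate transcription only when paired with MAX. MXD proteins, MXI1 and MNT pair with MAX at the same sequences and recruit SIN3 repressor complexes instead. MGA also pairs with MAX and acts as part of a repressor complex of the Polycomb type.

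The series holds 38 RNA-seq libraries of mouse kidney tumour cell lines (24 libraries), kidney tumours (9) and normal kidney (5). MYC tumours and MYC-2983 cells carry the Tet-O-MYC transgene, which doxycycline switches on through rtTA made from the Ksp (Cdh16) promoter. VM tumours and VM-3055 cells also carry a conditional loss of Vhl, made by a tamoxifen-inducible Cre under the same promoter. VIM tumours and VIM-3039 cells add germline loss of Ink4a/Arf (Cdkn2a). Each line has 4 libraries of cells maintained on doxycycline (Dox) and 4 of cells withdrawn from it. The paper describes taking RNA 24 h after plating with or without Dox. Each line is a culture from 1 tumour, so a difference between lines cannot be told apart from a difference between cultures. The series holds no cells without the transgene, so an effect of Dox itself cannot be told apart from that of the transgene. Tumours were maintained on Dox, while the kidneys were wild type and given vehicle, so genotype, Dox and tissue differ together in each tumour comparison. Titles of kidney replicates 1 and 3 carry B6 and those of 2, 4 and 5 carry KT, and what these marks mean is not stated. The 3 MYC tumour libraries come from 2 mice, and the 2 libraries of 1 of them were averaged into 1 sample. MYC tumour replicates 2 and 3 carry the mouse number of the MYC-2983 line and VM tumour replicate 2 that of VM-3055, so these cells and tumours may not be independent.

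Values are the authors' RSEM values, which they scaled to an upper quartile near 1000 units in every library. The estimated depth was 8.22 to 36.6 M reads per library, with a median of 15.2 M, and 3 reads equal 1.16 to 5.65 units. Changes are differences in mean log2(units + 1), and a gene passed at an adjusted p under 0.05 with a change of more than 1 in size. "Rose" and "fell" are used only for genes that passed, and ± gives the SD over samples.

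Vhl and Cdkn2a followed the genotype labels in the cell lines. Vhl stood at 433 to 461 units in MYC-2983 cells with Dox, 10.3 to 14.9 in VM-3055 cells and 8.32 to 18.05 in VIM-3039 cells. Without Dox it stood at 526 to 543, 24.3 to 38.8 and 9.49 to 24.9 units in the same order, and it fell with Dox in VM-3055 cells (log2 change -1.17, SE 0.21, adjusted p = 9.2e-05). Cdkn2a stood at 3056 to 3306 units in MYC-2983 cells with Dox, 3473 to 4189.8 in VM-3055 cells and 24.9 to 34.7 in VIM-3039 cells. Among tumours, Vhl was 559.7, 471 and 468 units in MYC tumours, 79.9, 40.2 and 40.7 in VM tumours and 226, 219 and 312 in VIM tumours, beside 612 to 772 in normal kidney. VIM tumours thus kept more Vhl signal than VM tumours. Cdkn2a was 108, 2872 and 59.3 units in MYC tumours, 4298, 4347 and 3392 in VM tumours and 33.9, 30.1 and 95.5 in VIM tumours, and at most 3.80 in the kidneys. The kidney epithelium gene Cdh16 was the most abundant of 7 kidney epithelium genes in every library, cells included.

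Per kb of merged exon, RNA assigned to the MYC family was below that of Max in every library group except the cells without Dox. The MYC family summed to 256 ± 9.85 units per kb in MYC-2983 cells with Dox and 695 ± 17.3 without it. VM-3055 cells had 154 ± 12.2 with Dox and 530.2 ± 16.3 without it. VIM-3039 cells had 143 ± 11.9 with Dox and 562 ± 24.6 without it. These sums hold RNA assigned to the 3 mouse genes, and whether Tet-O-MYC RNA is counted among it is not known. If it is not, total MYC RNA on Dox was not measured, in cells or tumours, and the ratios below leave it out. The 5 antagonists summed to 1229 ± 223 units per kb in MYC tumours, 1256 ± 254 in VM tumours and 1242 ± 55.3 in VIM tumours, beside 544 ± 29.0 in kidney. Mxi1 was the largest share of that sum in each tumour group, at 63.4%, 62.8% and 71.3%, and 48.99% in kidney. It was also the largest share in each cell group, from 35.7% in VIM-3039 cells without Dox to 53.5% in MYC-2983 cells with Dox. The ratio of antagonists to MYC family was 2.60 ± 0.191 with Dox and 0.619 ± 0.036 without it in MYC-2983 cells. It was 3.51 ± 0.253 and 0.940 ± 0.037 in VM-3055 cells, and 3.44 ± 0.222 and 0.785 ± 0.043 in VIM-3039 cells. Tumours had ratios of 10.6 ± 2.72 (MYC), 6.35 ± 2.16 (VM) and 8.28 ± 1.78 (VIM), and kidney had 11.3 ± 2.58.

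**Figure D1:**
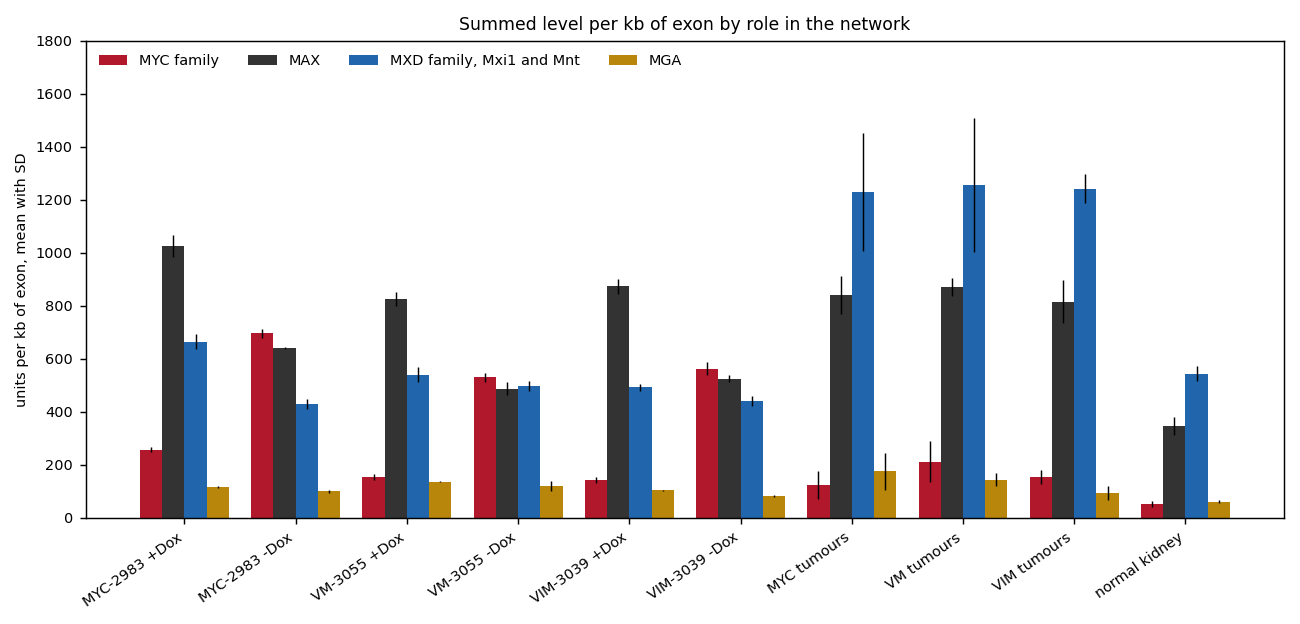
Summed level per kb of exon (bars, mean with SD over samples) of the MYC family, Max, the 5 antagonists and Mga in the 10 groups. The antagonists reach 1229, 1256 and 1242 units per kb in MYC, VM and VIM tumours, and the MYC family exceeds Max only in cells without Dox.

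By single members on the same scale, Max came first in each line with Dox (1026, 825 and 873 units per kb in the MYC, VM and VIM lines), with Mxi1 next (355, 273 and 238). Without Dox, Myc came first (674, 502 and 544), with Max next (640.2, 486 and 525). In VM-3055 and VIM-3039 cells without Dox that gap was within their spread. Mean Mxi1 was above mean Max only in VIM tumours, at 887 against 816 units per kb, which is within their spread. Kidney had Max at 347, Mxi1 at 267 and Myc at 24.6 units per kb, where Myc took place 7 of 10.

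Myc and Mycn fell with Dox in all 3 lines. In MYC-2983 cells 1 member (Mxi1) rose and 2 (Myc and Mycn) fell with Dox, while 4.49% of the 15104 genes tested rose and 15% fell. The median change there was -0.04 over the members and -0.13 over all genes. In VM-3055 cells 0 members rose and 4 (Myc, Mycn, Mxd1 and Mxd4) fell, beside 5.92% and 18.9% of 14319 genes, with medians of -0.11 and -0.26. In VIM-3039 cells 0 members rose and 4 (Myc, Mycn, Mycl1 and Mxd4) fell, beside 7.67% and 16.6% of 13998 genes, with medians of -0.47 and -0.15. The all-gene median depends on the scaling: TMM moved it by 0.12, 0.21 and 0.14 in the 3 lines in that order, and quantile normalization by 0.15, 0.25 and 0.16. Of the genes passing, 23% were higher with Dox in MYC-2983 cells and 42% under quantile normalization. For VM-3055 the share was 23.8%, 40.5% under TMM and 48.5% under quantile normalization. For VIM-3039 it was 31.6%, 43.5% under TMM and 49.3% under quantile normalization.

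More members passed between tumours and kidney, and most of them were higher. The 3 tumour comparisons share the same 5 kidneys and are given side by side. In MYC tumours 6 members rose and 1 fell against kidney, beside 16.8% and 16.2% of 17116 genes, with medians of 1.33 over the members and 0.08 over all genes. In VM tumours 5 rose and 1 fell, beside 16.5% and 21.2% of all genes, with medians of 1.09 and -0.03. The all-gene median in VM tumours moved by 0.13 under quantile normalization. In VIM tumours 4 rose and 3 fell, beside 18% and 19.3% of all genes, with medians of 0.71 and 0.00.

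**Figure D2:**
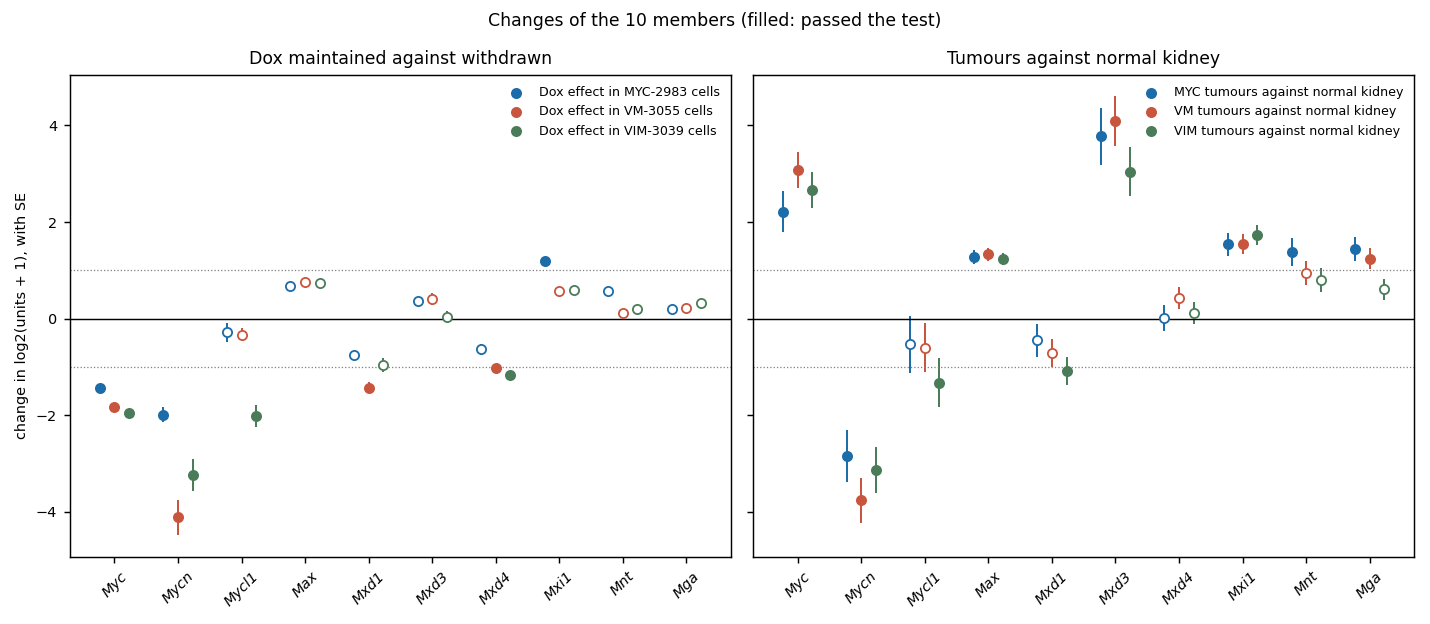
Change in log2(units + 1) with SE for each member: Dox effects in the 3 lines (left) and tumours against normal kidney (right). Filled points passed, and dotted lines mark a change of 1 either way. Myc is at -1.44, -1.83 and -1.96 on the left and at 2.22, 3.08 and 2.67 on the right.

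Myc encodes the MYC protein, the activator of the network (chromosome 15, 61816946 to 61821929, + strand, build mm9, as for all genes below). Its RNA was lower with Dox than without it in every line. MYC-2983 cells had 699, 693, 651 and 661 units with Dox and 1842, 1764, 1849 and 1868 without it. VM-3055 cells had 405, 413, 338 and 379.8 with Dox and 1308, 1399, 1406 and 1345 without it. VIM-3039 cells had 432, 359.8, 371 and 361 with Dox and 1500.4, 1384, 1532 and 1502 without it. All libraries with Dox were below all libraries without it, with no overlap in any line. Myc fell with Dox in MYC-2983 cells (log2 change -1.44, SE 0.032, adjusted p = 3.17e-17), VM-3055 cells (log2 change -1.83, SE 0.061, adjusted p = 2.22e-14) and VIM-3039 cells (log2 change -1.96, SE 0.054, adjusted p = 2.51e-18). The sources do not say whether Tet-O-MYC carries mouse sequence, so transgene and endogenous reads cannot be told apart in these values. By immunoblot, the paper reports MYC protein that depends on Dox in each of these lines. The RNA values here do not measure that protein.

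Tumours held more Myc than kidney. MYC tumours had 208, 438 and 389.8 units, VM tumours 409, 462 and 801 and VIM tumours 397, 476 and 339.6, against 62.3, 48.2, 64.3, 40.7 and 119 in kidney. Every tumour was above every kidney. Myc rose in MYC tumours (log2 change 2.22, SE 0.42, adjusted p = 0.00104), VM tumours (log2 change 3.08, SE 0.37, adjusted p = 1.94e-05) and VIM tumours (log2 change 2.67, SE 0.37, adjusted p = 6.69e-05). Mean Myc ran in the order MYC-2983 without Dox (1831 ± 45.7), VIM-3039 without Dox (1479 ± 65.5), VM-3055 without Dox (1364 ± 46.5), MYC-2983 with Dox (676 ± 23.8), VM tumours (557 ± 213), VIM tumours (404 ± 68.6), VM-3055 with Dox (384 ± 33.7), VIM-3039 with Dox (381 ± 34.2), MYC tumours (311 ± 146) and normal kidney (66.9 ± 30.7). Gaps wider than the sum of both SDs followed MYC-2983 without Dox, VIM-3039 without Dox, VM-3055 without Dox and MYC tumours, and no other neighbours differed beyond their spread.

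Mycn encodes N-MYC, which pairs with MAX as MYC does (chromosome 12, 12942902 to 12948720, - strand). With Dox it was near the limit of detection in VM-3055 and VIM-3039 cells. MYC-2983 cells had 16.2, 15.8, 11.4 and 12.1 units with Dox and 62.99, 51.98, 61.3 and 53.9 without it. VM-3055 cells had 3.69, 1.70, 1.70 and 0 with Dox and 37.9, 43.4, 35.7 and 47.9 without it. VIM-3039 cells had 0.694, 2.77, 0.656 and 1.62 with Dox and 18.98, 15.6, 26.5 and 23.2 without it. No library with Dox reached any library of its line without Dox, and only 1 of 4 with Dox exceeded 3 reads in each of VM-3055 and VIM-3039 cells. Mycn fell with Dox in MYC-2983 cells (log2 change -1.99, SE 0.16, adjusted p = 1.68e-09), VM-3055 cells (log2 change -4.12, SE 0.36, adjusted p = 9.66e-09) and VIM-3039 cells (log2 change -3.24, SE 0.33, adjusted p = 1.19e-08).

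Kidney also held more Mycn than any tumour, though only 1 of 3 VM tumours and 1 of 3 VIM tumours exceeded 3 reads, so these changes rest on values at the limit of detection. MYC tumours had 4.66, 12.3 and 7.06 units, VM tumours 5.33, 2.06 and 2.47 and VIM tumours 3.77, 10.03 and 3.67, against 46.7, 56.9, 46.9, 61.9 and 60.7 in kidney. Each tumour was below each kidney. Mycn fell in MYC tumours (log2 change -2.85, SE 0.54, adjusted p = 0.001), VM tumours (log2 change -3.76, SE 0.47, adjusted p = 2.75e-05) and VIM tumours (log2 change -3.14, SE 0.47, adjusted p = 0.000127). Mean Mycn ran in the order MYC-2983 without Dox (57.5 ± 5.43), normal kidney (54.6 ± 7.39), VM-3055 without Dox (41.2 ± 5.50), VIM-3039 without Dox (21.1 ± 4.79), MYC-2983 with Dox (13.9 ± 2.49), MYC tumours (7.18 ± 3.56), VIM tumours (5.82 ± 3.64), VM tumours (3.29 ± 1.78), VM-3055 with Dox (1.77 ± 1.51) and VIM-3039 with Dox (1.44 ± 0.996). Gaps beyond the spread followed normal kidney, VM-3055 without Dox and MYC-2983 with Dox only.

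Mycl1 encodes L-MYC, the remaining MYC family protein (chromosome 4, 122672895 to 122679728, + strand). Dox moved it past the thresholds in VIM-3039 cells alone. VIM-3039 cells had 8.33, 13.2, 7.87 and 13.7 units with Dox and 36.1, 51.3, 45.9 and 49.8 without it. VM-3055 cells had 45.1, 48.5, 50.1 and 53.5 with Dox and 60.8, 60.9, 54.3 and 74.4 without it. MYC-2983 cells had 14.5, 13.6, 9.75 and 15.2 with Dox and 15.7, 18.4, 16.2 and 14.7 without it. With Dox the VIM-3039 and VM-3055 libraries lay below all of those without it, and those of MYC-2983 cells overlapped. Mycl1 fell with Dox in VIM-3039 cells (log2 change -2.02, SE 0.23, adjusted p = 4.54e-08). It was slightly lower in VM-3055 cells (log2 change -0.33, SE 0.14, adjusted p = 0.0427), but higher under quantile normalization (0.34, adjusted p = 0.0466). The change in MYC-2983 cells (log2 change -0.29, SE 0.19, adjusted p = 0.182) also had the opposite sign under quantile normalization (0.24, adjusted p = 0.267).

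In tumours Mycl1 fell only in the VIM group, and that call was not stable. VIM tumours had 9.42, 20.1 and 11.01 units, VM tumours 14.6, 38.1 and 18.5 and MYC tumours 29.9, 30.9 and 9.89, against 24.2, 71.5, 26.8, 30.9 and 30.4 in kidney. All VIM tumours were below all kidneys, and the other tumours overlapped with the kidneys. Mycl1 passed in VIM tumours (log2 change -1.33, SE 0.51, adjusted p = 0.045), but not in MYC tumours (log2 change -0.54, SE 0.58, adjusted p = 0.496) or VM tumours (log2 change -0.61, SE 0.51, adjusted p = 0.351). The VIM tumour call was lost without VIM tumour replicate 1 (adjusted p = 0.148) or 3 (0.107), and without MYC tumour replicate 2 (0.0603). It was also lost without kidney replicate 2 (0.106), 3 (0.0573), 4 (0.0688) or 5 (0.06). With a pseudocount of 10 the change was -0.94. Mean Mycl1 ran in the order VM-3055 without Dox (62.6 ± 8.48), VM-3055 with Dox (49.3 ± 3.50), VIM-3039 without Dox (45.8 ± 6.85), normal kidney (36.8 ± 19.6), MYC tumours (25.1 ± 6.70), VM tumours (23.8 ± 12.6), MYC-2983 without Dox (16.3 ± 1.57), VIM tumours (13.5 ± 5.73), MYC-2983 with Dox (13.3 ± 2.44) and VIM-3039 with Dox (10.8 ± 3.10). Only the first gap, after VM-3055 without Dox, was wider than the spread.

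Max encodes the common partner of the other members (chromosome 12, 78038256 to 78063235, - strand). It was higher with Dox in each line, by less than the threshold. MYC-2983 cells had 1962, 2096, 2149 and 2022 units with Dox and 1276, 1289, 1281 and 1288 without it. VM-3055 cells had 1619, 1632, 1631 and 1737 with Dox and 981, 1039.6, 954 and 926 without it. VIM-3039 cells had 1668, 1799.6, 1783 and 1752 with Dox and 1077, 1060.2, 1058 and 1016 without it. The lowest library with Dox was above the highest without it in each line. Differences were similar in MYC-2983 cells (log2 change 0.68, SE 0.030, adjusted p = 2.28e-13), VM-3055 cells (log2 change 0.76, SE 0.048, adjusted p = 8.31e-11) and VIM-3039 cells (log2 change 0.73, SE 0.036, adjusted p = 4.2e-14).

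Every tumour held more Max than every kidney. MYC tumours had 1585, 2009 and 1566 units, VM tumours 1824, 1719.6 and 1691 and VIM tumours 1608, 1808 and 1489, against 697, 603, 756, 656 and 763 in kidney. No kidney reached the level of any tumour. Max rose in MYC tumours (log2 change 1.27, SE 0.15, adjusted p = 3.43e-05), VM tumours (log2 change 1.33, SE 0.13, adjusted p = 4.78e-06) and VIM tumours (log2 change 1.23, SE 0.13, adjusted p = 9.37e-06). Mean Max ran in the order MYC-2983 with Dox (2057 ± 82.2), VIM-3039 with Dox (1750.0 ± 58.5), VM tumours (1745 ± 70.3), MYC tumours (1686 ± 144), VM-3055 with Dox (1655 ± 55.2), VIM tumours (1635 ± 161), MYC-2983 without Dox (1284 ± 6.18), VIM-3039 without Dox (1053 ± 25.9), VM-3055 without Dox (975 ± 48.5) and normal kidney (695 ± 67.7). Gaps beyond the spread followed MYC-2983 with Dox, VIM tumours, MYC-2983 without Dox, VIM-3039 without Dox and VM-3055 without Dox, so the tumours and the VM-3055 and VIM-3039 cells with Dox did not separate.

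Mxd1 encodes MAD1, an antagonist that pairs with MAX (chromosome 6, 86597038 to 86619153, - strand). It was lower with Dox in each line. VM-3055 cells had 99.02, 71.5, 75.6 and 71.1 units with Dox and 198, 213, 226 and 217 without it. MYC-2983 cells had 86.7, 85.9, 99.7 and 104 with Dox and 153, 175, 142 and 169 without it. VIM-3039 cells had 47.9, 51.3, 51.2 and 58.2 with Dox and 84.5, 86.96, 128 and 119 without it. The libraries with and without Dox did not overlap in any line. Mxd1 fell in VM-3055 cells (log2 change -1.43, SE 0.11, adjusted p = 2.37e-09). It was lower without passing in MYC-2983 cells (log2 change -0.76, SE 0.091, adjusted p = 4.62e-07) and VIM-3039 cells (log2 change -0.97, SE 0.15, adjusted p = 3.84e-06). The VIM-3039 change passed without replicate 4 with Dox (-1.02), or without replicate 1 (-1.06) or 2 (-1.05) of the cells without Dox.

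Among tumours Mxd1 fell in VIM tumours only. VIM tumours had 149, 122 and 108 units, VM tumours 208, 94.8 and 212 and MYC tumours 169.8, 259 and 189, against 213, 255, 254, 299.7 and 320.1 in kidney. All VIM and VM tumours were below all kidneys, while MYC tumours overlapped with them. Mxd1 passed in VIM tumours (log2 change -1.08, SE 0.29, adjusted p = 0.00801), but not in VM tumours (log2 change -0.72, SE 0.29, adjusted p = 0.0577) or MYC tumours (log2 change -0.45, SE 0.33, adjusted p = 0.306). The VIM tumour change was -0.98 without VIM tumour replicate 3, and -0.89 (adjusted p = 0.139) with only the kidneys whose titles carry B6. Mean Mxd1 ran in the order normal kidney (269 ± 42.1), VM-3055 without Dox (214 ± 11.6), MYC tumours (197 ± 38.5), VM tumours (172 ± 66.5), MYC-2983 without Dox (159.9 ± 14.97), VIM tumours (126 ± 20.6), VIM-3039 without Dox (105 ± 22.1), MYC-2983 with Dox (94.01 ± 9.08), VM-3055 with Dox (79.3 ± 13.3) and VIM-3039 with Dox (52.1 ± 4.32). Neighbours differed beyond their spread only after normal kidney and VM-3055 with Dox.

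Mxd3 encodes MAD3, an antagonist known from dividing cells (chromosome 13, 55426529 to 55431119, - strand, where it overlaps Prelid1 on the other strand). It differed little with Dox and most between tumours and kidney. MYC tumours had 143, 75.7 and 163 units, VM tumours 105, 112 and 329 and VIM tumours 96.3, 45.2 and 99.2, against 6.94, 4.39, 9.40, 14.7 and 8.87 in kidney. Each tumour was above each kidney, with VM tumour replicate 3 the highest library of all. Mxd3 rose in MYC tumours (log2 change 3.77, SE 0.58, adjusted p = 0.000237), VM tumours (log2 change 4.09, SE 0.51, adjusted p = 2.68e-05) and VIM tumours (log2 change 3.05, SE 0.51, adjusted p = 0.000297).

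In cells Mxd3 did not pass in any line. MYC-2983 cells had 167, 174, 157 and 148 units with Dox and 115, 119, 136 and 132 without it. VM-3055 cells had 147, 132, 127 and 137 with Dox and 88.4, 86.9, 119 and 116 without it. VIM-3039 cells had 116, 90.9, 115 and 104 with Dox and 104, 109.6, 89.96 and 109.6 without it. Libraries with Dox were the higher ones in MYC-2983 cells (log2 change 0.36, SE 0.079, adjusted p = 0.000452) and VM-3055 cells (log2 change 0.41, SE 0.12, adjusted p = 0.00544). Those of VIM-3039 cells overlapped (log2 change 0.04, SE 0.11, adjusted p = 0.771). Mean Mxd3 ran in the order VM tumours (182 ± 127), MYC-2983 with Dox (162 ± 11.2), VM-3055 with Dox (136 ± 8.46), MYC tumours (131 ± 16.8), MYC-2983 without Dox (126 ± 10.01), VIM-3039 with Dox (106 ± 11.6), VIM-3039 without Dox (103 ± 9.27), VM-3055 without Dox (103 ± 17.5), VIM tumours (80.3 ± 30.4) and normal kidney (8.85 ± 3.80). The only gaps wider than the spread followed MYC-2983 with Dox and VIM tumours.

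Mxd4 encodes MAD4, a further antagonist (chromosome 5, 34516536 to 34530369, - strand). Without Dox it was higher in each line. MYC-2983 cells had 142, 176, 206 and 126 units with Dox and 229.7, 261, 255 and 254 without it. VM-3055 cells had 174, 184, 163 and 195 with Dox and 351, 339, 375 and 389 without it. VIM-3039 cells had 112, 135, 111 and 134 with Dox and 302, 276, 246 and 289 without it. No library with Dox overlapped with those without it. Mxd4 fell in VIM-3039 cells (log2 change -1.17, SE 0.093, adjusted p = 1.58e-10) and VM-3055 cells (log2 change -1.02, SE 0.079, adjusted p = 1.53e-09), and was lower without passing in MYC-2983 cells (log2 change -0.64, SE 0.11, adjusted p = 4.14e-05). In VM-3055 cells it was just past the threshold, with -0.98 without replicate 3 with Dox, -0.99 without replicate 4 without Dox and -0.99 with a pseudocount of 10. Under TMM the VM-3055 change was -0.79, and under quantile normalization -0.76. Quantile normalization also ended the call in VIM-3039 cells (-0.95).

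Tumours and kidney had similar Mxd4. MYC tumours had 632, 406 and 517 units, VM tumours 831, 699 and 631 and VIM tumours 403, 558 and 857, against 595, 534, 562, 422 and 568 in kidney. Kidney values lay among those of the MYC and VIM tumours and below those of the VM tumours. None of the changes passed in MYC tumours (log2 change 0.01, SE 0.26, adjusted p = 0.982; -0.11 under TMM and quantile normalization), VM tumours (log2 change 0.43, SE 0.23, adjusted p = 0.147) or VIM tumours (log2 change 0.12, SE 0.23, adjusted p = 0.703). Mean Mxd4 ran in the order VM tumours (720.4 ± 102), VIM tumours (606 ± 231), MYC tumours (547 ± 120.3), normal kidney (536 ± 67.6), VM-3055 without Dox (364 ± 22.6), VIM-3039 without Dox (278 ± 23.9), MYC-2983 without Dox (249.7 ± 13.7), VM-3055 with Dox (179 ± 13.6), MYC-2983 with Dox (163 ± 35.98) and VIM-3039 with Dox (123 ± 13.5). Gaps beyond the spread followed normal kidney, VM-3055 without Dox and MYC-2983 without Dox, so all tissue groups were above all cell groups.

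Mxi1 encodes MXI1, an antagonist of the MXD kind (chromosome 19, 53384996 to 53450300, + strand, overlapping Gm10197 on the other strand). Opposite to Mxd1 and Mxd4, it was higher with Dox. MYC-2983 cells had 1952, 1952, 2100.0 and 1974 units with Dox and 854, 912, 863 and 877 without it. VM-3055 cells had 1567, 1431, 1483 and 1655 with Dox and 1004, 1077, 989 and 1036 without it. VIM-3039 cells had 1362, 1298, 1315 and 1378 with Dox and 896, 876, 869 and 889 without it. The groups did not overlap in any line. Mxi1 rose in MYC-2983 cells (log2 change 1.19, SE 0.032, adjusted p = 2.73e-16). It was higher without passing in VM-3055 cells (log2 change 0.58, SE 0.051, adjusted p = 1.12e-08) and VIM-3039 cells (log2 change 0.60, SE 0.036, adjusted p = 1.45e-12).

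Mxi1 was the antagonist with the highest level per kb in tumours, as in kidney and every cell group. MYC tumours had 3536, 5249 and 5364 units, VM tumours 3253, 6178 and 4094 and VIM tumours 5281, 4602 and 5065, against 1529, 1425, 1691, 1521 and 1321 in kidney. Even the lowest tumour was well above the highest kidney. Mxi1 rose in MYC tumours (log2 change 1.54, SE 0.23, adjusted p = 0.000202), VM tumours (log2 change 1.54, SE 0.20, adjusted p = 4.07e-05) and VIM tumours (log2 change 1.74, SE 0.20, adjusted p = 1.81e-05). Mean Mxi1 ran in the order VIM tumours (4982 ± 347), VM tumours (4508 ± 1506), MYC tumours (4421 ± 1252), MYC-2983 with Dox (1994 ± 71.2), VM-3055 with Dox (1534 ± 98.4), normal kidney (1497 ± 137), VIM-3039 with Dox (1338 ± 38.04), VM-3055 without Dox (1026 ± 39.1), VIM-3039 without Dox (883 ± 12.04) and MYC-2983 without Dox (876 ± 25.6). Gaps beyond the spread followed MYC tumours, MYC-2983 with Dox, VIM-3039 with Dox and VM-3055 without Dox, and the 3 tumour groups did not separate.

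Mnt encodes an antagonist of MYC that is found in most cell types (chromosome 11, 74644422 to 74659227, + strand). In cells it was higher with Dox mainly in MYC-2983. MYC-2983 cells had 745, 782, 829 and 780.4 units with Dox and 486, 552, 524 and 565 without it. VM-3055 cells had 685, 643, 587 and 633 with Dox and 576, 565, 574 and 626 without it. VIM-3039 cells had 777, 746, 701 and 729.5 with Dox and 635, 609, 622 and 727 without it. Only the MYC-2983 libraries separated by Dox. No change passed in MYC-2983 cells (log2 change 0.56, SE 0.046, adjusted p = 2.5e-09), VM-3055 cells (log2 change 0.12, SE 0.058, adjusted p = 0.0713) or VIM-3039 cells (log2 change 0.19, SE 0.053, adjusted p = 0.00277).

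Among tumours Mnt passed in the MYC group. MYC tumours had 806, 1134 and 886 units, VM tumours 574, 763 and 666 and VIM tumours 644, 786 and 429.6, against 266, 295, 341, 550.5 and 330.2 in kidney. MYC and VM tumours were all above the kidneys, of which replicate 4 was the highest, and VIM tumours overlapped with them. Mnt rose in MYC tumours (log2 change 1.38, SE 0.29, adjusted p = 0.00208), and was higher without passing in VM tumours (log2 change 0.94, SE 0.25, adjusted p = 0.00746) and VIM tumours (log2 change 0.80, SE 0.25, adjusted p = 0.0188). The VM tumour change passed without kidney replicate 4 (1.11), without VM tumour replicate 1 (1.05) and with only the B6 kidneys (1.13). In VIM tumours it passed without replicate 3 (1.04). Mean Mnt ran in the order MYC tumours (908 ± 144), MYC-2983 with Dox (784 ± 34.8), VIM-3039 with Dox (738 ± 31.5), VM tumours (668 ± 94.5), VIM-3039 without Dox (648 ± 53.4), VM-3055 with Dox (637 ± 40.4), VIM tumours (619.8 ± 179), VM-3055 without Dox (585 ± 27.5), MYC-2983 without Dox (532 ± 35) and normal kidney (357 ± 112). Only the gap after MYC-2983 without Dox was wider than the spread.

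Mga encodes the MAX partner of the Polycomb-type complex (chromosome 2, 119722964 to 119795317, + strand). It was slightly higher with Dox and higher in tumours than in kidney. MYC tumours had 1909.5, 4374 and 2513 units, VM tumours 1769.6, 2371 and 2493 and VIM tumours 1104, 1907 and 1338, against 809.7, 888, 933, 935 and 1078 in kidney. The lowest tumour, VIM replicate 1, was just above the highest kidney. Mga rose in MYC tumours (log2 change 1.44, SE 0.25, adjusted p = 0.000529) and VM tumours (log2 change 1.24, SE 0.22, adjusted p = 0.000393), and was higher without passing in VIM tumours (log2 change 0.61, SE 0.22, adjusted p = 0.033).

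With Dox, Mga did not pass in any line. MYC-2983 cells had 1762, 1768, 1682 and 1842 units with Dox and 1441, 1475, 1591 and 1625 without it. VM-3055 cells had 2122, 2059.6, 2113 and 2062 with Dox and 1767, 2265, 1589.9 and 1679.5 without it. VIM-3039 cells had 1622, 1550.0, 1612 and 1576 with Dox and 1318, 1297, 1218 and 1258 without it. Only the VM-3055 libraries overlapped, through replicate 2 without Dox. The changes were small in MYC-2983 cells (log2 change 0.20, SE 0.038, adjusted p = 9.34e-05), VM-3055 cells (log2 change 0.21, SE 0.077, adjusted p = 0.0221) and VIM-3039 cells (log2 change 0.32, SE 0.035, adjusted p = 3.56e-08). Mean Mga ran in the order MYC tumours (2676 ± 1084), VM tumours (2211 ± 387), VM-3055 with Dox (2089 ± 32.9), VM-3055 without Dox (1825 ± 302), MYC-2983 with Dox (1763 ± 65.4), VIM-3039 with Dox (1590.0 ± 33.02), MYC-2983 without Dox (1533 ± 88.9), VIM tumours (1450.0 ± 413), VIM-3039 without Dox (1273 ± 44.03) and normal kidney (929 ± 97.7). Neighbours separated by more than their spread only after MYC-2983 with Dox and VIM-3039 without Dox.

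**Figure D3:**
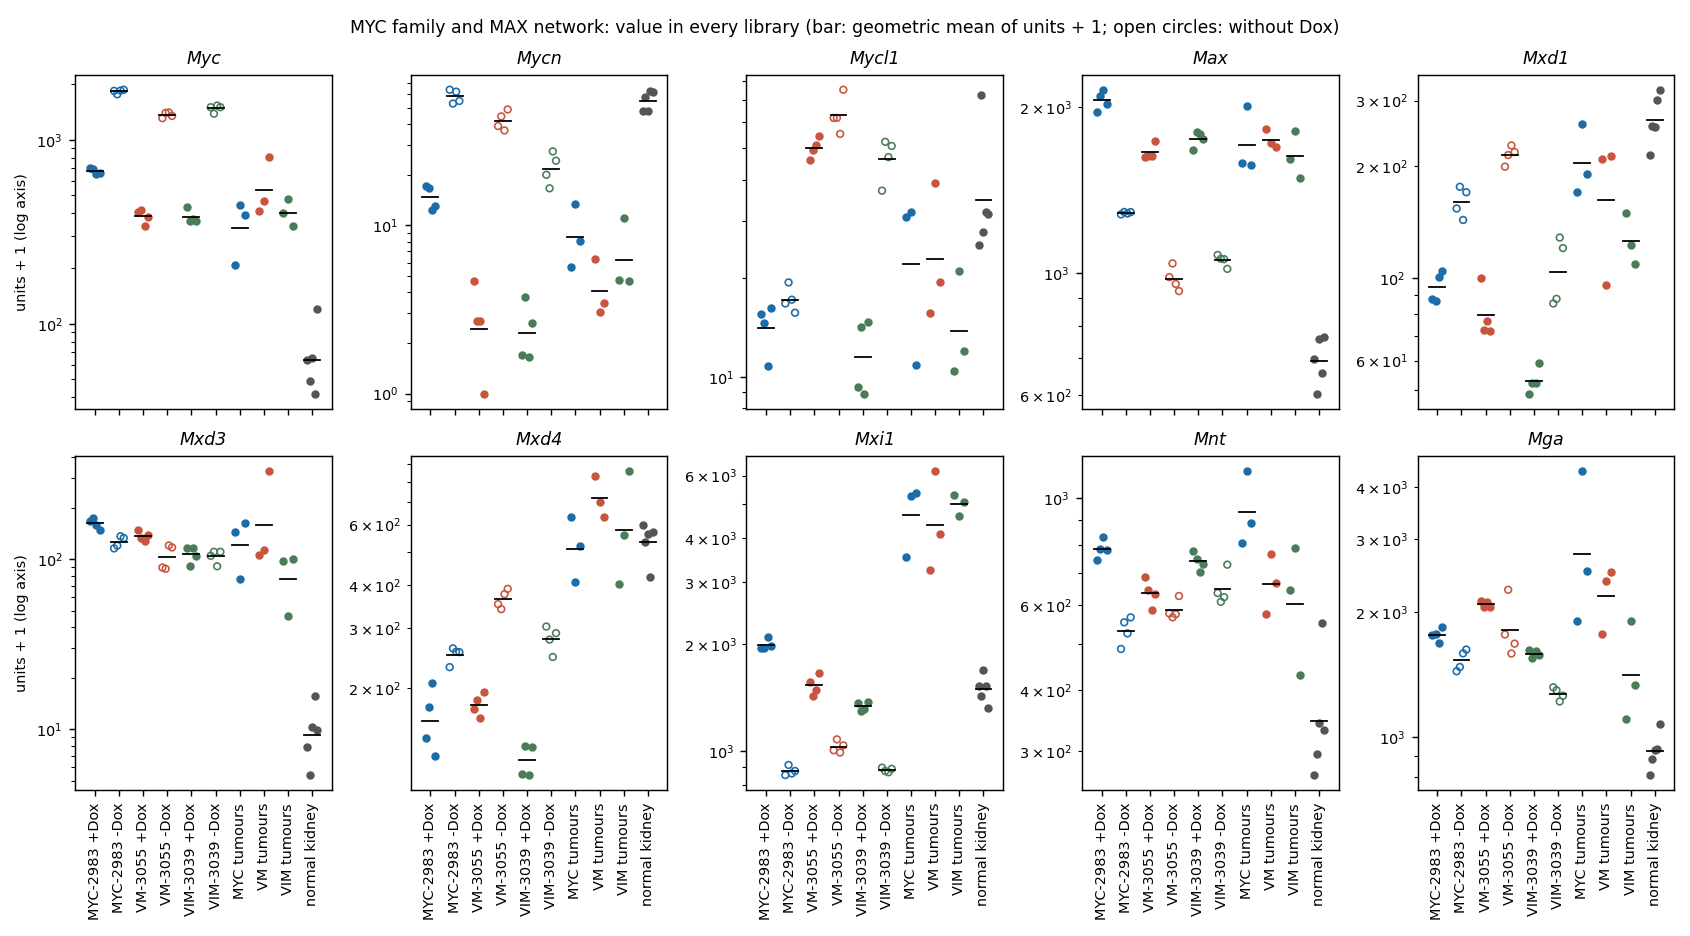
Each library's value (units + 1, log axis) for the 10 members in the 10 groups; open circles are cells without Dox and bars are geometric means. Myc is lowest in kidney (40.7 to 119 units) and highest in MYC-2983 cells without Dox (1764 to 1868 units).

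The Dox effect was compared between lines as an interaction, and 1 member passed in each of the comparisons given here. Between VM-3055 and MYC-2983 cells 0 members were higher and 1 (Mycn) lower in their Dox effect past the thresholds, beside 3.26% and 5.53% of 15813 genes. The medians were -0.39 over the members and -0.08 over all genes. The fall of Mycn was larger in VM-3055 cells (difference -2.13, SE 0.44, adjusted p = 0.000411). With a pseudocount of 10 that difference was -0.62 and did not pass. The other differences were Myc -0.39 (adjusted p = 0.000107), Mxd1 -0.67 (adjusted p = 0.000963), Mxd4 -0.38 (adjusted p = 0.0474), Mxi1 -0.61 (adjusted p = 7.21e-08) and Mnt -0.44 (adjusted p = 7.31e-05). The rest were Mycl1 -0.04 (adjusted p = 0.897), Max 0.08 (adjusted p = 0.22), Mxd3 0.05 (adjusted p = 0.821) and Mga 0.01 (adjusted p = 0.971). Of the genes passing, 37.1% were higher, and 48.3% under quantile normalization.

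Between VIM-3039 and VM-3055 cells, Mycl1 was the only member whose Dox effect differed past the thresholds. Of the members 0 were higher and 1 lower, beside 3.7% and 2.35% of 15180 genes, with medians of 0.00 over the members and 0.10 over all genes. Mycl1 had a lower Dox effect in VIM-3039 cells (difference -1.68, SE 0.27, adjusted p = 4.37e-05), and did not pass with Dox in VM-3055 cells. The other differences were Myc -0.13, Mycn 0.88, Max -0.03, Mxd1 0.46, Mxd3 -0.37, Mxd4 -0.15, Mxi1 0.02, Mnt 0.07 and Mga 0.11, each with an adjusted p of at least 0.0729. TMM moved the all-gene median by -0.12. Of the genes passing, 61.2% were higher, and 48.2% under quantile normalization.

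With Dox, VM-3055 cells held less Myc and Mycn and more Mycl1 than MYC-2983 cells. Position numbers in the titles repeat between these lines and continue from VM-3055 to VIM-3039. No title names a sequencing batch, so line and a separate sequencing cannot be told apart. Past the thresholds 1 member (Mycl1) was higher and 1 (Mycn) lower, beside 6.54% and 18.1% of 14780 genes, with medians of -0.28 over the members and -0.19 over all genes. Mycl1 rose (log2 change 1.83, SE 0.17, adjusted p = 2.9e-07) and Mycn fell (log2 change -2.60, SE 0.39, adjusted p = 3.11e-05). Myc was lower without passing (log2 change -0.82, SE 0.059, adjusted p = 1.84e-08). Other differences were Max -0.31 (adjusted p = 1.9e-06), Mxd4 0.16 (adjusted p = 0.277), Mxi1 -0.38 (adjusted p = 2.21e-06), Mnt -0.30 (adjusted p = 7.38e-05) and Mga 0.25 (adjusted p = 7.19e-06). Mxd1 (-0.25, adjusted p = 0.0822) was higher under quantile normalization (0.38, adjusted p = 0.00874), and so was Mxd3 (-0.25, adjusted p = 0.0118; 0.13 under quantile normalization). TMM and quantile normalization moved the all-gene median by 0.15 and 0.25. Of the genes passing, 26.6% were higher, and 52.3% under quantile normalization.

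VIM-3039 and VM-3055 cells with Dox differed past the thresholds in Mycl1 alone. Of the members 0 were higher and 1 lower, beside 9.69% and 9.45% of 14060 genes, with medians of -0.27 over the members and 0.02 over all genes. Mycl1 fell (log2 change -2.13, SE 0.21, adjusted p = 1.38e-07). Myc did not differ (log2 change -0.01, SE 0.073, adjusted p = 0.907). Other differences were Mycn -0.08 (adjusted p = 0.893), Max 0.08 (adjusted p = 0.0536), Mxd1 -0.59 (adjusted p = 0.00136) and Mxd3 -0.35 (adjusted p = 0.00601). The remaining members were at Mxd4 -0.54 (adjusted p = 0.000118), Mxi1 -0.20 (adjusted p = 0.000773), Mnt 0.21 (adjusted p = 0.00127) and Mga -0.39 (adjusted p = 7.61e-09).

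No member passed between VM and MYC tumours or between VIM and VM tumours, and VIM and MYC tumours were not compared directly. VM against MYC tumours had 0 members higher and 0 lower in limma, with 0 at an unadjusted p under 0.05, beside 0.789% and 1.18% of 17116 genes. These shares were unstable, and with only the 2 groups fitted 0 genes passed. The log2 changes were Myc 0.86, Mycn -0.92, Mycl1 -0.07, Max 0.06, Mxd1 -0.27, Mxd3 0.32, Mxd4 0.41, Mxi1 0.01, Mnt -0.44 and Mga -0.20. Their median was -0.03, and -0.13 over all genes, which TMM moved by 0.11 and quantile normalization by 0.13. Of the genes passing, 40.1% were higher, and 52.3% under quantile normalization. VIM against VM tumours had 0 members higher and 0 lower in limma, beside 1.88% and 0.911% of all genes. That is 477 genes, and 40 with only these groups fitted. Mga alone had an unadjusted p under 0.05 in limma (-0.63, adjusted p = 0.199). The other log2 changes were Myc -0.41, Mycn 0.62, Mycl1 -0.73, Max -0.10, Mxd1 -0.36, Mxd3 -1.05, Mxd4 -0.31, Mxi1 0.19 and Mnt -0.14. Medians were -0.34 over the members and 0.07 over all genes. Of the genes passing, 67.3% were higher, and 52.5% under quantile normalization.

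Of the genes known to be activated by MYC, all that passed rose with Dox. Of those known to be repressed, all that passed fell. The lists used here and below were chosen with earlier results of these data known, so their counts are not independent evidence. Over all genes 4.49%, 5.92% and 7.67% rose and 15%, 18.9% and 16.6% fell in the MYC, VM and VIM lines. Of 22 genes known to be activated, 12 rose and 0 fell in MYC-2983 cells (median 1.02, all genes -0.13), with Polr1b (log2 change 1.58, SE 0.034, adjusted p = 2.29e-17) and Srm (log2 change 1.57, SE 0.027, adjusted p = 2.48e-18) rising most. In VM-3055 cells 17 rose and 0 fell (median 1.55, all genes -0.26), led by Srm (log2 change 2.72, SE 0.046, adjusted p = 1.57e-17) and Nolc1 (log2 change 2.29, SE 0.046, adjusted p = 8.43e-17). In VIM-3039 cells 18 rose and 0 fell (median 1.75, all genes -0.15), again led by Srm (log2 change 2.71, SE 0.037, adjusted p = 1.45e-22) and Nolc1 (log2 change 2.42, SE 0.031, adjusted p = 1.04e-22). Of 10 genes known to be repressed, 0 rose in any line, and 6, 7 and 5 fell in the MYC, VM and VIM lines (medians -1.09, -1.12 and -0.97). Thbs1 fell most in MYC-2983 cells (-2.07), VM-3055 cells (-2.15) and VIM-3039 cells (-2.40). Next were Cdkn2b in MYC-2983 cells (-1.49) and VM-3055 cells (-1.46), and Txnip in VIM-3039 cells (-1.04). Of 8 dividing-cell genes 1, 5 and 7 rose with Dox (medians 0.73, 1.11 and 1.25) and 0 fell. Aurkb rose in MYC-2983 cells (1.16), VM-3055 cells (1.46) and VIM-3039 cells (1.35).

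Some partners of the network rose with Dox, and no cofactor, turnover or MGA complex gene fell. Over all genes 4.49%, 5.92% and 7.67% rose and 15%, 18.9% and 16.6% fell. Of 15 MYC and MXD cofactors 2, 3 and 3 rose in the MYC, VM and VIM lines and 0 fell (medians 0.27, 0.17 and 0.30). Ruvbl2 rose in MYC-2983 cells (log2 change 1.19, SE 0.030, adjusted p = 1.29e-16), VM-3055 cells (log2 change 1.57, SE 0.047, adjusted p = 5.55e-15) and VIM-3039 cells (log2 change 1.57, SE 0.036, adjusted p = 1.49e-19). Ruvbl1 did so too (1.14, 1.46 and 1.59 in the same order). Of 8 genes of MYC turnover 0, 3 and 3 rose and 0 fell (medians 0.31, 0.60 and 0.57), led by Skp2 (1.39 and 1.39) and Usp36 (1.32 and 1.34) in VM-3055 and VIM-3039 cells. Of 9 genes of the MGA complex 1, 2 and 3 rose and 0 fell (medians 0.30, 0.44 and 0.18), including Pcgf6 in MYC-2983 cells (1.22), VM-3055 cells (1.16) and VIM-3039 cells (1.24). Tfdp1 rose in VM-3055 cells (1.22) and VIM-3039 cells (1.19). In the MLX branch of 3 genes, Mlxipl rose in MYC-2983 cells (log2 change 1.86, SE 0.14, adjusted p = 1.07e-09; 113 ± 11.3 units with Dox and 30.9 ± 6.85 without it). In VM-3055 cells Mlxipl had too few reads to be tested (0 units with Dox), and 0 of the other 2 genes passed. In VIM-3039 cells Mlxipl was near the limit of detection (1.19 ± 1.01 units with Dox and 5.67 ± 4.34 without it, overlapping) and fell (adjusted p = 0.0086). The medians of the genes tested were 0.48, 0.24 and 0.09 in the 3 lines.

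Single MYC-related genes differed in Dox effect between lines. The 22 activated genes had a median difference of 0.56 between VM-3055 and MYC-2983 cells, against -0.08 over all genes, of which 3.26% were higher and 5.53% lower. Between VM-3055 and MYC-2983 cells, Srm had a larger rise (difference 1.15, SE 0.051, adjusted p = 1.13e-12), and Ndrg2 (difference -1.25, SE 0.079, adjusted p = 1.14e-10) had a lower Dox effect. Of the 22 activated genes 1 was higher and 0 lower there, and of the 10 repressed genes 0 and 1. The MLX branch had 0 and 1, but that gene, Mlxipl, was almost absent from VM-3055 cells, so its Dox effects in these lines cannot be compared. Between VIM-3039 and VM-3055 cells, Cdkn1a differed (difference 1.35, SE 0.056, adjusted p = 8.25e-14), the only 1 of the 10 repressed genes to do so. Over all genes 3.7% were higher and 2.35% lower in that interaction. On Dox, the VM-3055 line had 0 units of Mlxipl and MYC-2983 had 113 ± 11.3 (log2 change -6.83, SE 0.19, adjusted p = 1.13e-12). With Dox, VM-3055 cells held less L3mbtl2 (log2 change -1.52, SE 0.033, adjusted p = 8.59e-14) and Ccnd2 (log2 change -5.74, SE 0.082, adjusted p = 2.18e-15) and more Cdkn1a (log2 change 1.80, SE 0.053, adjusted p = 1.93e-12) than MYC-2983 cells. VIM-3039 cells held less Hdac1 (log2 change -3.05, SE 0.094, adjusted p = 6.63e-14) and Actl6a (log2 change -1.18, SE 0.032, adjusted p = 1.47e-14) than VM-3055 cells, and more Ccnd2 (log2 change 5.26, SE 0.080, adjusted p = 1.36e-17). There 0 of 15 cofactors rose and 2 fell, and 4 of 10 repressed genes rose and 2 fell, beside 9.69% and 9.45% of all genes.

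In tumours most activated genes rose, and most repressed genes and cofactors did not pass. Over all genes 16.8%, 16.5% and 18% rose and 16.2%, 21.2% and 19.3% fell in the 3 groups. Of the 22 activated genes 19, 19 and 18 rose and 1, 2 and 1 fell in MYC, VM and VIM tumours (medians 2.27, 2.14 and 2.23, all genes 0.08, -0.03 and 0.00). Cad rose most in MYC tumours (log2 change 4.23, SE 0.50, adjusted p = 3.39e-05) and Srm in VIM tumours after Npm1 (3.73 and 3.91). In VM tumours Cad (3.68) and Srm (3.61) led. Odc1 fell in MYC tumours (-2.93), VM tumours (-2.83) and VIM tumours (-2.84). Of the 10 repressed genes 1, 2 and 2 rose and 1, 1 and 1 fell (medians 0.03, 0.00 and 0.21). Cdkn2b rose in MYC tumours (log2 change 5.60, SE 0.46, adjusted p = 2.63e-06), VM tumours (log2 change 6.07, SE 0.41, adjusted p = 2.46e-07) and VIM tumours (log2 change 6.87, SE 0.41, adjusted p = 1.36e-07). All 8 dividing-cell genes rose in each tumour group (medians 5.62, 5.79 and 5.35). Of the 15 cofactors 6, 3 and 3 rose and 0, 0 and 1 fell (medians 0.72, 0.67 and 0.41), led by Ruvbl2 (2.66, 2.85 and 2.58). Hdac1 fell in VIM tumours (log2 change -2.39, SE 0.34, adjusted p = 7.63e-05), also against VM tumours (log2 change -2.45, SE 0.37, adjusted p = 0.00543).

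Turnover genes were mostly higher in tumours, while most MGA complex genes did not pass. Over all genes 16.8%, 16.5% and 18% rose and 16.2%, 21.2% and 19.3% fell in MYC, VM and VIM tumours. Of the 8 turnover genes 6, 5 and 5 rose and 0 fell in MYC, VM and VIM tumours (medians 1.53, 1.38 and 1.02), with Aurka first (4.85, 5.30 and 5.05). In the MGA complex 2, 2 and 3 of 9 genes rose and 1 fell in each group (medians 0.47, 0.27 and 0.14). Tfdp1 rose most (2.76, 3.18 and 3.02), with Pcgf6 next in all 3 (1.66 in MYC and 1.54 in VM tumours, and adjusted p = 3.84e-05 in VIM tumours), and Yaf2 fell (-1.04, -1.12 and -1.14). In the MLX branch 0 rose (medians 0.43, 0.18 and 0.15), and Mlx fell in MYC tumours (log2 change -1.91, SE 0.30, adjusted p = 0.000295), VM tumours (log2 change -1.20, SE 0.27, adjusted p = 0.00212) and VIM tumours (log2 change -1.23, SE 0.27, adjusted p = 0.00187). Between VM and MYC tumours, Ldha (log2 change 1.70, SE 0.39, adjusted p = 0.0429) and Srm (log2 change 1.32, SE 0.27, adjusted p = 0.0289) rose and Ccnd2 (log2 change -4.21, SE 0.71, adjusted p = 0.0123) fell. With just these 2 groups fitted 0 genes passed, so these calls were lost.

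Tumours and kidneys differed in tubule and dividing-cell markers as well, while kidney epithelium genes went both ways. Over all genes 16.8%, 16.5% and 18% rose and 16.2%, 21.2% and 19.3% fell in MYC, VM and VIM tumours. Proximal tubule genes (6) summed to 10510.0, 3395 and 3981 units in MYC tumours, 5092, 4906 and 6291 in VM tumours and 4322, 6709 and 1773 in VIM tumours, against 201200.0, 211000.0, 232400.0, 223600.0 and 197800.0 in kidney. Slc34a1 was the most abundant of them in kidney, and all 6 fell in each tumour group (medians -6.39, -7.23 and -6.30). Loop, distal tubule and collecting duct genes (6) summed to 41.98, 2835 and 120.1 units in MYC, 7.99, 14.4 and 2.47 in VM and 158, 6688 and 71.6 in VIM tumours, against 74180.0, 111500.0, 90990.0, 91610.0 and 164700.0 in kidney, where Umod led. All 6 fell, and Aqp2 was at 0 in every VM tumour. Dividing-cell genes summed to 10520.0, 13520.0 and 24330.0 units in MYC, 7913, 13230.0 and 18460.0 in VM and 8562, 14260.0 and 7120.0 in VIM tumours, against 267, 208, 221, 362 and 263 in kidney. The 7 kidney epithelium genes summed to 17680.0, 24110.0 and 15530.0 units in MYC, 14950.0, 17990.0 and 13480.0 in VM and 20550.0, 22960.0 and 9577 in VIM tumours, against 22970.0, 27500.0, 27270.0, 25950.0 and 33600.0 in kidney. Of these 1, 1 and 2 rose and 2, 4 and 3 fell (medians -0.88, -2.67 and -1.15), and Pax2 was at 0 in VIM tumour replicate 3 and VM tumour replicates 2 and 3.

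Most endothelial genes fell in tumours against kidney, some leukocyte genes passed, and most fibroblast and mural genes did not pass. Over all genes 16.8%, 16.5% and 18% rose and 16.2%, 21.2% and 19.3% fell in MYC, VM and VIM tumours. Leukocyte genes (7) summed to 4728, 1832 and 1686 units in MYC, 2438, 964 and 1205 in VM and 2989, 2836 and 1562 in VIM tumours, against 1118, 1283, 906, 1182 and 2049 in kidney. Csf1r was the most abundant of them except in VIM tumour replicates 1 and 2 (Cd68). Of the 7 genes 3, 2 and 3 rose and 0, 2 and 2 fell (medians 0.94, -0.14 and -0.15). Endothelial genes (5) summed to 608, 1431 and 192 units in MYC, 1949, 252 and 555 in VM and 446, 684 and 1022 in VIM tumours, against 4002, 3253, 3463, 4448 and 5579 in kidney. None was at 0 in tissue, and 4, 4 and 5 fell (medians -3.04, -2.64 and -2.27). Fibroblast and mural genes (6) summed to 1042, 8466 and 792 units in MYC, 1529, 559.8 and 689 in VM and 870.1, 2251 and 1694 in VIM tumours, against 1488, 2460.0, 1114, 1787 and 3624 in kidney, with Col1a2 leading in most. Of these 1, 0 and 0 rose and 0, 2 and 1 fell (medians -0.37, -1.69 and -0.37). Fewer cells of a type and less RNA per cell cannot be told apart here, and whether cell composition accounts for any member's change was not tested.

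In the cell lines, endothelial genes were near absent (sums of 0 to 12.5 units), and the leukocyte and proximal tubule sums came from part of each list. Of the 7 leukocyte genes 3 to 4 exceeded 3 reads in a library, and of the 6 proximal tubule genes 3, with Lrp2 the most abundant. Of the 6 fibroblast and mural genes 5 to 6 did so in MYC-2983 cells and 1 in VM-3055 cells with Dox. Leukocyte genes summed to 218 to 254 units with Dox and 439.6 to 466 without it in MYC-2983 cells, with Csf1r the most abundant and Emr1 at 0 in all cell libraries. VM-3055 cells had 362 to 404 with Dox and 944 to 1013 without it, and VIM-3039 cells had 287 to 314 and 369 to 444. Of the leukocyte genes 1 of 3 tested fell with Dox in MYC-2983 cells, 4 of 4 in VM-3055 cells and 0 of 3 in VIM-3039 cells (medians -0.91, -1.70 and -0.19, all genes -0.13, -0.26 and -0.15, of which 15%, 18.9% and 16.6% fell). Proximal tubule genes summed to 4545 to 5523 with Dox and 6651 to 7889 without it in MYC-2983 cells, 4142 to 5559 and 5532 to 8265 in VM-3055 cells, and 3805 to 4428 and 4153 to 4912 in VIM-3039 cells. Dividing-cell genes summed to 35370.0 to 36530.0 units in MYC-2983 cells with Dox and 20720.0 to 21680.0 without it. VM-3055 cells had 35450.0 to 36980.0 with Dox and 16790.0 to 19740.0 without it, and VIM-3039 cells had 27250.0 to 27700.0 and 12020.0 to 13060.0. Fibroblast and mural genes summed to 211 to 267 with Dox and 968 to 1118 without it in MYC-2983 cells, 84.04 to 109.8 and 627 to 708 in VM-3055 cells, and 52.8 to 71.4 and 182 to 239.7 in VIM-3039 cells. Kidney epithelium genes summed to 11870 to 13390 units with Dox and 17690 to 18630 without it in MYC-2983 cells. VM-3055 cells had 6215 to 6388 and 13490 to 14020, and VIM-3039 cells had 6034 to 6162 and 10400 to 11130. Of these 7 genes 0, 0 and 1 rose and 2 fell in each line, while 4.49%, 5.92% and 7.67% of all genes rose. Cdh16 fell in VM-3055 cells (log2 change -1.37). Of the fibroblast and mural genes tested 5 of 6, 2 of 4 and 2 of 3 fell in the same order. Whether these marker changes bear on the members was not tested.

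Some genes followed the members closely over the 10 group means, on the log scale (Pearson's r, n = 10 groups, among 13361 genes with a group mean of at least 50 units). Those named had the highest of 13360 values for each member, and the level that chance alone would reach was not computed. Myc was nearest to Zfp9 (r = 0.97), Sike1 (0.95) and Ccdc109b (0.95). Mycn was nearest to Pcsk7 (0.97), Rnf185 (0.96) and 6430548M08Rik (0.95), and Mycl1 to Scamp1, Hist1h1c and Ccdc85a (0.90 each). Max was nearest to Bzw2 (0.99), Rrp1b (0.98) and Impdh2 (0.98). Mxd1 was nearest to Zfp426 (0.98), Gpc4 (0.97) and A730020M07Rik (0.97). Mxd3 was nearest to Aldh18a1 (0.98), Brca1 (0.97) and Ccnb2 (0.97), and Mxd4 to Sertad3 (0.99), Ctsb (0.98) and Slc38a9 (0.98). Mxi1 was nearest to Cluap1 (0.97), Rac3 (0.96) and Rnaseh2b (0.96). Mnt was nearest to Zbtb12 (0.97), Hlcs (0.94) and Rsrc2 (0.94), and Mga to Zfp498 (0.97), Alms1 (0.94) and Rsbn1 (0.93). Among member pairs, Max and Mnt (0.82), Mxd3 and Mnt (0.82) and Mxd1 and Mxd4 (0.79) were most alike.

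The promoters of Max, Mxd4 and Mnt hold the E-box CACGTG, the site that MYC and MAX bind. In the RefSeq promoter set used, 9 of the 10 members have an entry (11 entries, 3 of them for Mxi1), and Myc was not found in it. CACGTG lies within 250 bases before to 50 after the start in 3 members. Over all 32851 promoters of that length, 2349 (7.15%) hold it. Runs of 260 bases from 250 before the start to 10 after it are shown for these 3 members, because they carry the site, on build GRCm38.p6 with capitals for CACGTG. Max lies at chr12:76962239-76962498 (- strand), where the site begins 3 bases before the start and spans it. Mxd4 lies at chr5:34187701-34187960 (- strand), with the site 219 bases before the start. Mnt lies at chr11:74830674-74830933 (+ strand), with the site 123 bases before the start. Binding was not measured.
Max: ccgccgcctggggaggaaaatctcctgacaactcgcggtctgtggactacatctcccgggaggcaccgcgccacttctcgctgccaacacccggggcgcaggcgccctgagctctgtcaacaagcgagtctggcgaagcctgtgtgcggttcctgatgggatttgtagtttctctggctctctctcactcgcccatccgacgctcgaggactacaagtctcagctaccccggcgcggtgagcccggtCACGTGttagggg
Mxd4: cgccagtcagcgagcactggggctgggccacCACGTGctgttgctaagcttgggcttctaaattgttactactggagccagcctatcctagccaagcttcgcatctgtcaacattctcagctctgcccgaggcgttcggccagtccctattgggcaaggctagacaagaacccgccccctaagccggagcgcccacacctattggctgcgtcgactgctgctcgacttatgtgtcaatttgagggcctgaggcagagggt
Mnt: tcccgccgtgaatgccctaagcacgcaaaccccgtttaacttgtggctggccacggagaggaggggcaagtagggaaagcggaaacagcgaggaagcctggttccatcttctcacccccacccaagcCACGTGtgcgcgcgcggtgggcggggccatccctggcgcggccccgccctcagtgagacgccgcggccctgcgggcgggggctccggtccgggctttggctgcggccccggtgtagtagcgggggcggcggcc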

How the data were processed

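The authors made paired-end libraries with a stranded TruSeq mRNA kit, aligned reads with MapSplice to mm9 and quantified genes with RSEM (SAMtools, Picard 1.64). The deposited values are RSEM signal scaled by the upper quartile of each library (998.1 to 1000 here). Use of strand in counting is not stated, and values are not per length. The table has 21705 genes and 38 libraries, with 3235 genes at 0 throughout and 1 symbol given to 2 rows.

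From this table, log2(units + 1) was tested in limma 3.58.1 (R 4.3.3) with a trended prior, two-sided, and p was adjusted over all genes tested by Benjamini and Hochberg. Tissue was 1 fit of 4 groups with the 2 libraries of 1 mouse averaged first, on genes above 0 in at least 2 samples. Cells were fitted per comparison, on genes above 0 in at least 4 libraries. The scripts were tested on simulated data. Levels per kb use merged exon lengths of GENCODE vM1. The alternatives were pseudocounts of 0.1 and 10, other filters, TMM, quantile normalization, no moderation, separate fits, kidney subsets and single libraries left out. Python 3.11.15, pandas 2.3.3, numpy 2.4.6 and matplotlib 3.10.9 were used.

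Named genes follow a rule: all 10 members in every comparison, Vhl and Cdkn2a as a check of the labels, and 3 genes per member by likeness. From each other list up to 2 passing genes with the largest rise and 2 with the largest fall qualified if their higher group averaged 50 units or more, and the text gives the leading ones. The values of 1 marker gene are not reported here. The members and lists were chosen with earlier results of these data known.

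Depth per group (median, M reads) was 25.6 and 24.8 in MYC-2983 cells with and without Dox, 14.9 and 17.4 in VM-3055 cells, 18.8 and 14.3 in VIM-3039 cells, 9.59 in MYC tumours, 11.8 in VM tumours, 9.90 in VIM tumours and 13.4 in kidney. The variance between replicates was 1.72 to 18.5 times that of read sampling in cells, 62.6 to 263 times in tumours and 14.5 to 203 times in kidney. The p-values measure spread between these samples. The paper describes plating cells by dish with or without Dox, but does not state whether each replicate of a line was a separate dish. The meaning of B6 and KT in the kidney titles is not stated. RNA levels say nothing of protein levels or of pairing with MAX.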

Additional observations from a re-analysis of the deposited data

Results flagged for a closer look

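In 6 of 70 pairs of group and gene, 1 library lay far from the others, where chance gives about 1 in 20. The share over all genes was not computed, so this count is not a trait of the members. These pairs cover the cell and kidney groups, and the tumour groups, with fewer samples, were not checked. Myc was 432 units in replicate 1 of VIM-3039 cells with Dox, and 360 to 371 in the other 3. Max was 1737 in replicate 4 of VM-3055 cells with Dox, and 1619 to 1632 in the others. Mxd1 was 99.0 in replicate 1 of VM-3055 cells with Dox, and 71.1 to 75.6 in the others. Mxi1 was 2100 in replicate 3 of MYC-2983 cells with Dox, and 1952 to 1974 in the others. In kidney, Mycl1 was 71.5 in replicate 2 against 24.2 to 30.9, and Mnt was 550.5 in replicate 4 against 266 to 341.

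The Dox effect differed between lines for Mycn and Mycl1. Mycn fell further in VM-3055 than in MYC-2983 cells (difference -2.13, adjusted p = 0.000411 in limma), but it was not above 3 reads in 3 of 4 VM-3055 libraries with Dox, and with a pseudocount of 10 the difference was -0.62 and did not pass. Mycl1 had a lower Dox effect in VIM-3039 than in VM-3055 cells (difference -1.68, adjusted p = 4.37e-05 in limma), and did not pass in VM-3055 cells. The causes were not tested.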

How the results depend on the processing

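Over all alternative settings, the changes of members kept direction and side of the threshold in 1072 cases, were weaker in 12, stronger in 1 and changed sign without passing in 23, and none that passed reversed. With single libraries left out the figures were 1361, 10, 6 and 43, and leaving out MYC tumour replicate 1 leaves 1 animal, assumed to vary like the other groups. Passing members numbered 3 (MYC-2983), 3 to 4 (VM-3055) and 4 to 5 (VIM-3039) for Dox, and 7, 6 to 7 and 6 to 7 for MYC, VM and VIM tumours against kidney, with single libraries left out. The interaction of VM-3055 and MYC-2983 cells had 0 passing members with a pseudocount of 10, where the log2 difference of a low gene such as Mycn shrinks. VM-3055 against MYC-2983 cells with Dox had 1 with a mean of at least 10 units required, since Mycn was then not tested. Mycl1 in VIM tumours also lost its call with a pseudocount of 0.1 (adjusted p = 0.0567), under quantile normalization (0.0871), with every library as its own sample (0.063), and with only B6 (0.313) or only KT kidneys (0.0591), and the cause was not tested. Fitting replicate numbers as a block left 4, 4, 1 and 1 members passing (Dox in VM-3055 and VIM-3039 cells, their interaction, and VIM-3039 against VM-3055 cells with Dox), as without it. Libraries with the same number correlated at -0.31 to -0.05 in VM-3055 cells, -0.06 to 0.11 in VIM-3039 cells and -0.07 to 0.21 between these lines, so the numbers do not pair them. Other replicate numbers were not blocked. Counts of list genes passing stayed the same in 1334 cases and moved in 109 over the alternative settings. With single libraries left out they stayed the same in 1712 and moved in 134.

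Counts of all genes passing moved with several settings. With a pseudocount of 10, Dox in MYC-2983 cells went from 2942 to 1936 genes, the interaction of VM-3055 and MYC-2983 cells from 1389 to 675 (856 with a mean of at least 10 units), that of VIM-3039 and VM-3055 cells from 918 to 458 (541), VM-3055 against MYC-2983 cells from 3635 to 2314, and VIM-3039 against VM-3055 cells from 2691 to 1653. VM against MYC tumours went from 337 genes to 196 without a filter, 181 without moderation, 0 with only those 2 groups fitted and 510 with every library as its own sample, and from 122 to 527 with single libraries left out. VIM against VM tumours went from 477 to 265, 257 and 40 under the first 3 of these, and to 208 at the lowest with a library left out. A count test on recovered whole reads was not run, since only 94.1% to 95.9% of values of up to 20 reads were whole reads within 0.02. Depth limits Mycn, which was not above 3 reads in 3 of 4 libraries with Dox in each of VM-3055 and VIM-3039 cells and in 2 of 3 libraries in each of VM and VIM tumours.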
